A study of Mus musculus with 12 samples.

Results

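Transcripts of the Toll-like receptors (TLRs) were examined in RNA-seq of bone endothelial cells (BECs), the cells that line the blood vessels of bone. The 10 mouse genes Tlr1, Tlr2, Tlr3, Tlr4, Tlr5, Tlr6, Tlr7, Tlr8, Tlr9 and Tlr13 were taken by name as members of the family, a choice made with earlier results of these data known, and all 10 were found by Ensembl ID among the 37620 genes of the count table. All 10 passed the filter on low counts in every comparison. BECs came from female and male mice of the inbred c57/Bl6 strain, aged 2 or 65 weeks, with no mutant allele and no treatment named for any group. This gave 4 groups of 3 libraries: 2-week females, 2-week males, 65-week females and 65-week males. The cells were purified by endomucin, a surface protein of bone capillaries, from tibia per the labels. The methods of the study state that the samples with the best RNA quality in each set went on to library preparation. Neither source says whether a library came from a single animal or a pool, so p-values measure the spread between libraries, which may be technical.

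TLRs are membrane receptors of innate immunity that recognise molecules shared by many microbes. Some sit at the cell surface and bind bacterial lipids and proteins, whereas others sit in endosomes and sense nucleic acids. Ligand binding recruits adaptor proteins such as MyD88 and TRIF, which lead through kinases to NF-kappaB and interferon regulatory factors and so to cytokine transcription. Macrophages, dendritic cells, neutrophils and B cells are rich sources of TLR transcripts, and endothelial cells are also known to respond to TLR ligands.

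The members lie on chromosomes 1, 3, 4, 5, 8, 9 and X (GRCm39, GENCODE M39). Among the surface receptors, Tlr5 lies at chr1:182782311-182805500 (plus strand), Tlr2 at chr3:83743576-83749074 (minus) and Tlr4 at chr4:66745783-66849936 (plus). Tlr1 at chr5:65082022-65090941 and Tlr6 at chr5:65108704-65203497 are neighbours on the minus strand. Of the endosomal receptors, Tlr3 lies at chr8:45848702-45864117 (minus) and Tlr9 at chr9:106099797-106104082 (plus). Tlr13 at chrX:105186810-105204533 (plus), Tlr8 at chrX:166024184-166047325 (minus) and Tlr7 at chrX:166086758-166113605 (minus) are X-linked. Tlr1 and Tlr6 share 259 windows of 100 bases in their transcripts, 7.58% of the windows of Tlr1 and 5.34% of those of Tlr6, so reads from these stretches could have been split or dropped in counting. No other pair among the members, Tlr11 and Tlr12 shares such a window. Exons of Tlr3 and Tlr4 overlap antisense RNAs by 438 and 235 bases, and without stated strand use reads from these stretches cannot be told apart.

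Promoters were read from RefSeq (GRCm38.p6), 250 bases before to 50 after the annotated start, and 8 of the 10 members had an entry. The 4 printed here belong to the members with the largest rise in 65-week females (Tlr9 and Tlr13), to 1 of the closely matched neighbours Tlr7 and Tlr8, and to the member that fell (Tlr3). Capitals mark matches on either strand to GAGGAA, the core of sites for the myeloid and B cell factor PU.1, or to TGANTCA, an AP-1-type site. The windows are chr9:106222348-106222647 (plus) for Tlr9, chrX:106143025-106143324 (plus) for Tlr13, chrX:167264280-167264579 (minus) for Tlr8 and chr8:45410331-45410630 (minus) for Tlr3.
Tlr9: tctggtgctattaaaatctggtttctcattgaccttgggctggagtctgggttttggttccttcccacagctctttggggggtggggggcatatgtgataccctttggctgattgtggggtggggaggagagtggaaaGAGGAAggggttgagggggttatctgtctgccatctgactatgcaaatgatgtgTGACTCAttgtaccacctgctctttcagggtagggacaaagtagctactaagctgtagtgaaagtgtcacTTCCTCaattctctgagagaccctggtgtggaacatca
Tlr13: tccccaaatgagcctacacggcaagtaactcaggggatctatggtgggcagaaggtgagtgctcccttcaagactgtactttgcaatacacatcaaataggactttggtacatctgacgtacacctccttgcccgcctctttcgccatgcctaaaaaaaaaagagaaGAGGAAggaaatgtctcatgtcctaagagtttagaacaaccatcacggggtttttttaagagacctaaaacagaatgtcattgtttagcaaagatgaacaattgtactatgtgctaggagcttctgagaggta
Tlr8: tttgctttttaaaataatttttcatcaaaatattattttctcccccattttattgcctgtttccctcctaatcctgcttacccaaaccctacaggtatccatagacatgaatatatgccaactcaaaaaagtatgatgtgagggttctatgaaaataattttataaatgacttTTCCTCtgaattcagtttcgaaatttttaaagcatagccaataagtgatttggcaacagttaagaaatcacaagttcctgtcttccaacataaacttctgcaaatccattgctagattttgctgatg
Tlr3: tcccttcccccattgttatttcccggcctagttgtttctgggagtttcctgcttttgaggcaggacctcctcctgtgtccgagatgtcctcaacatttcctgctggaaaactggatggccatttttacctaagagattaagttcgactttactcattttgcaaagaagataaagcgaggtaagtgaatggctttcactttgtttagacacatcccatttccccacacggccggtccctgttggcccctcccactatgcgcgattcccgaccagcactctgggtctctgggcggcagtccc
Of the 10 promoters of these 8 members, 4 held the PU.1 core, which was found in 28.3% of all 32851 promoters of this length. They belong to Tlr1 (in 1 of its promoters only), Tlr8, Tlr9 and Tlr13. No promoter of Tlr2, Tlr5 or Tlr6 held it, although these members rose in at least 1 sex, and neither did that of Tlr3. The printed windows therefore show no link between the motif and the direction of change. Tlr9 also held the AP-1-type letters, found in 7.81% of them, and no capital stands in the Tlr3 window. Another motif, GAAA followed by any 2 bases and GAAA again, of the IRF type, was found in 3.44% of all promoters and among the members in Tlr6 alone, as 2 overlapping matches. A match of letters is a description of the sequence and not a binding site.

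Depth per library was 35012947 to 38289171 counts for 2-week females, 36335541 to 44569600 for 2-week males, 29049031 to 34088694 for 65-week females and 26044743 to 27323682 for 65-week males. The endothelial label was checked on 10 endothelial markers (Pecam1, Cdh5, Emcn, Kdr, Tek, Tie1, Flt4, Stab2, Erg and Eng), each of which had counts. Their summed level was 2643 to 4805 CPM (counts scaled by the library total) over the 2-week libraries and 198.6 to 301 CPM over the 65-week libraries. All 10 markers were lower at 65 weeks in both sexes with no overlap, as were 41.6% of all genes in females and 39.4% in males. Emcn, the gene of endomucin, was at 115.0 to 227.1 CPM at 2 weeks and at 2.80 to 6.98 CPM at 65 weeks. The name BEC is kept from the labels and does not state which cells made up the 65-week libraries. Markers of other cells were present throughout: 10 neutrophil markers summed to 4077 to 6406 CPM at 2 weeks and to 12100 to 26330 CPM at 65 weeks, and 10 monocyte and macrophage markers to 3380 to 4320 and 7449 to 10390 CPM. The neutrophil sum was above the endothelial sum in all 65-week libraries and in the 3 libraries of 2-week females. The same held for replicate 2 of the 2-week males, at 4371 against 3821 CPM, and not for replicates 1 and 3 of that group. Erythroid markers had the largest sum of the lists, 25350 to 49770 CPM over the 12 libraries, and none of the 9 found differed in any comparison without overlap. Osteoclast markers summed to 2128 to 3276 CPM at 2 weeks and to 800.4 to 1800 CPM at 65 weeks. Replicate 3 of the 65-week males stood apart. It held 117 counts of the female-specific Xist, 3.35% of the mean level of 65-week females, where the other 2 libraries of its group held 3 and 0, and its 10 B cell markers summed to 1661 CPM against 574.8 and 444.2 CPM. The calls between the sexes at 65 weeks, the calls in the interaction and the male rise of Tlr9 are given with and without it. Other male age changes are given with it included. Among them are those of Tlr1, Unc93b1, Cd180, Ly86 and Rel, for which it was the highest library of its group. Replicate 3 of the 2-week females also differed from its group, with 25 counts of Y-linked genes against 0 and 1 and with Xist at 138% of that mean against 72.1% and 70.8%. Without it the called members were the same except Tlr4 with age in females. In bulk samples such as these, fewer cells of a type and less RNA per cell cannot be told apart.

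Between 2 and 65 weeks most TLR transcripts rose, and Tlr3 fell. In females, 8 of the 10 members rose and 1 fell at an adjusted p under 0.05 (edgeR quasi-likelihood test, adjusted over all genes), in a comparison where 59.7% of the 15120 genes tested were called, 30.2% higher and 29.5% lower. In males 6 rose and 1 fell, where 55.5% of 14959 genes were called, 27% higher and 28.5% lower. The same numbers of members did not overlap between the ages, against 27.6% of all genes higher and 41.6% lower without overlap in females and 26% and 39.4% in males. The median log2 fold change of the members was 1.25 in females and 0.71 in males, and that of all genes tested was 0.01 in each sex. The sum of the 10 members was 237.3 to 288.7 CPM in 2-week females and 258 to 354.1 CPM in 2-week males. At 65 weeks it was 528.7 to 671 CPM in females and 407 to 583.2 CPM in males. The 9 called members of 10 in females and 7 of 10 in males stand beside a background in which most genes were called, with nearly equal shares of rises and falls.

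**Figure D1:**
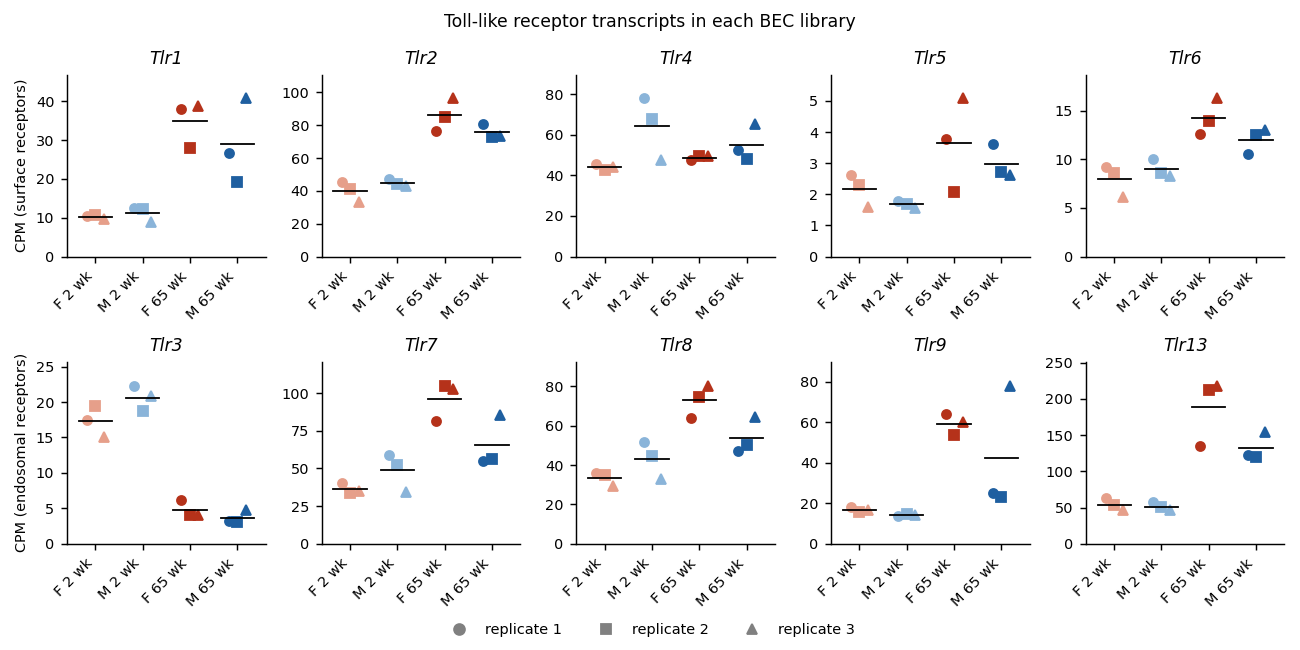
Level of each TLR gene in CPM (y axis, from 0) in the 4 groups (x axis), with the 3 libraries of a group as a circle, a square and a triangle for replicates 1, 2 and 3 and the group mean as a line. Tlr13 reached 218 CPM in a 65-week female library, Tlr3 was at 6.20 CPM or lower in the 65-week libraries, and replicate 3 of the 65-week males lay far above the other 2 for Tlr9.

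Among the surface receptors, Tlr2, which pairs with Tlr1 or Tlr6 to bind bacterial lipopeptides, had the highest level of those that rose in both sexes. It was measured at 45.4, 41.2 and 33.1 CPM in 2-week females and at 76.5, 85.1 and 96.4 CPM in 65-week females (replicates 1, 2 and 3 in this order here and in what follows). In males it was measured at 47.4, 44.2 and 42.7 CPM at 2 weeks and at 80.6, 72.9 and 73.6 CPM at 65 weeks. Every 65-week library lay above every 2-week library. By edgeR it rose by 1.25 on the log2 scale in females (SE 0.13, adjusted p = 9.71e-05) and by 0.87 in males (SE 0.10, adjusted p = 0.000264).

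Tlr1, the partner for triacylated lipopeptides, was at 10.5, 10.6 and 9.61 CPM in 2-week females and at 38.1, 28.1 and 38.7 CPM in 65-week females. Male libraries held 12.5, 12.1 and 8.97 CPM at 2 weeks and 26.6, 19.2 and 40.8 CPM at 65 weeks. The ages did not overlap in either sex, and the 65-week males spread most widely. Tlr1 rose by 1.91 on the log2 scale in females (SE 0.14, edgeR adjusted p = 1.42e-05) and by 1.47 in males (SE 0.26, edgeR adjusted p = 0.00229). Tlr6, the partner for diacylated lipopeptides, ran at a lower level, with 9.20, 8.54 and 6.09 CPM in 2-week females and 12.6, 14.0 and 16.3 CPM in 65-week females. Its male libraries held 10.03, 8.62 and 8.28 CPM at 2 weeks and 10.5, 12.5 and 13.0 CPM at 65 weeks, close together but with no overlap. Tlr6 rose by 0.98 on the log2 scale in females (SE 0.18, edgeR adjusted p = 0.00184) and by 0.53 in males (SE 0.15, edgeR adjusted p = 0.0164). The male call was lost without replicate 2 (edgeR adjusted p = 0.0705) or replicate 3 (edgeR adjusted p = 0.0759) of the 2-week males.

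Tlr4, the receptor for bacterial lipopolysaccharide, differed little between the ages. In females it was at 45.7, 42.8 and 44.2 CPM at 2 weeks and at 47.4, 49.5 and 49.5 CPM at 65 weeks. The male values were 78.0, 67.9 and 47.5 CPM at 2 weeks and 52.4, 47.9 and 65.4 CPM at 65 weeks. The female groups lay close together without overlap, and the male groups overlapped, with 2-week replicates 1 and 2 the highest of all 12 libraries. The female difference passed the test with a log2 difference of 0.27 (SE 0.07, adjusted p = 0.0133 by edgeR) and lost its call without any 1 of the 3 libraries of 2-week females (edgeR adjusted p from 0.0533 to 0.0661). The male value was -0.11 (95% CI -0.56 to 0.33, edgeR adjusted p = 0.636), which does not show that the ages were alike.

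Tlr5, the flagellin receptor, had the lowest mean of the members in every group, with 57 to 149 counts per library. It was at 2.61, 2.31 and 1.59 CPM in 2-week females and at 3.79, 2.08 and 5.08 CPM in 65-week females. In males it was at 1.77, 1.70 and 1.57 CPM at 2 weeks and at 3.62, 2.704 and 2.61 CPM at 65 weeks. The female groups overlapped through 65-week replicate 2, and the male groups did not overlap. Its age difference in females was a log2 value of 0.88 (SE 0.35, adjusted p = 0.0605 by edgeR), which DESeq2 called at 0.85 (adjusted p = 0.0497) in a fit that called all 10 members and 61.3% of all genes. In males it was 0.95 (SE 0.26, edgeR adjusted p = 0.0153), a call lost without any 1 of the 2-week male libraries (edgeR adjusted p from 0.0561 to 0.0662).

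The endosomal receptors included the member that fell and Tlr13, whose mean was the highest in CPM except in 2-week males, where Tlr4 stood above it. Tlr13, a mouse receptor for bacterial ribosomal RNA, was at 63.2, 53.2 and 46.0 CPM in 2-week females and at 134.7, 212 and 218 CPM in 65-week females. Male libraries held 57.2, 50.3 and 46.5 CPM at 2 weeks and 122.6, 119 and 154.8 CPM at 65 weeks. No library of 65 weeks lay below 119 CPM and none of 2 weeks above 63.2 CPM. The rise was 1.94 on the log2 scale in females (SE 0.20, edgeR adjusted p = 9.08e-05) and 1.48 in males (SE 0.12, edgeR adjusted p = 4.6e-05).

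Tlr9, which senses unmethylated CpG DNA, was at 18.2, 15.6 and 16.95 CPM in 2-week females and at 64.1, 53.6 and 60.1 CPM in 65-week females. The male values were 13.9, 14.7 and 14.2 CPM at 2 weeks and 25.4, 23.2 and 78.2 CPM at 65 weeks. The ages did not overlap in either sex, and replicate 3 of the 65-week males was the highest of all 12 libraries while the other 2 lay below every 65-week female library. Tlr9 rose by 1.94 on the log2 scale in females (SE 0.10, edgeR adjusted p = 4.13e-06) and by 1.66 in males (SE 0.42, edgeR adjusted p = 0.0116). Without replicate 3 of the 65-week males the male rise was 0.89 (edgeR adjusted p = 0.000398), in a fit that called 62% of all genes. The summed B cell markers had the same order in these 3 libraries, with 574.8, 444.2 and 1661 CPM. That list ran from 265.5 to 356.3 CPM at 2 weeks and from 935.9 to 1302 CPM in 65-week females, and its part in the level of Tlr9 was not tested.

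Tlr7 and Tlr8, neighbours on the X chromosome, had the closest patterns of any pair of members. Tlr7, which senses single-stranded RNA, was at 40.6, 34.0 and 35.1 CPM in 2-week females and at 81.6, 105.0 and 102.5 CPM in 65-week females. In males it was at 59.2, 52.3 and 34.7 CPM at 2 weeks and at 55.2, 56.2 and 85.7 CPM at 65 weeks. The female groups lay far apart, and the male groups overlapped, with 2-week replicates 1 and 2 level with 65-week replicates 1 and 2. Tlr7 rose by 1.53 on the log2 scale in females (SE 0.13, edgeR adjusted p = 2.7e-05), and in males the value was 0.54 (95% CI 0.01 to 1.06, edgeR adjusted p = 0.0784).

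Tlr8, whose human counterpart senses single-stranded RNA, was at 35.8, 34.8 and 29.5 CPM in 2-week females and at 63.8, 74.7 and 80.4 CPM in 65-week females. Male libraries held 51.7, 44.7 and 32.7 CPM at 2 weeks and 47.4, 50.1 and 64.4 CPM at 65 weeks. As for Tlr7, the female groups did not overlap and the male groups did. Tlr8 rose by 1.27 on the log2 scale in females (SE 0.11, edgeR adjusted p = 3.93e-05), and in males the value was 0.43 (95% CI 0.01 to 0.85, edgeR adjusted p = 0.074). The 2-week male libraries with high Tlr4, Tlr7 and Tlr8 were also high in the macrophage marker Adgre1, at 307.8, 271.4 and 178.4 CPM in replicates 1, 2 and 3, and in the scavenger receptor Cd163, at 119.2, 112.2 and 47.8 CPM. These genes were singled out after their values were seen, and their part in the male results was not tested. Of the 10 markers of the macrophage list 7 were higher in both replicates 1 and 2 than in replicate 3, and 3 were lower, namely Lyz2 at 1613, 1550 and 1923 CPM, Cx3cr1 at 40.9, 34.0 and 54.7 CPM and Ccr2 at 78.5, 68.9 and 120.8 CPM. The sum of the whole list was 3854, 3585 and 3547 CPM.

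Tlr3, which senses double-stranded RNA and signals through TRIF, was the member that fell. It was at 17.5, 19.4 and 15.1 CPM in 2-week females and at 6.20, 4.08 and 4.06 CPM in 65-week females. The male values were 22.3, 18.7 and 20.9 CPM at 2 weeks and 3.22, 3.11 and 4.72 CPM at 65 weeks. Every 65-week library lay below every 2-week library by a wide gap. Tlr3 fell by 1.73 on the log2 scale in females (SE 0.19, edgeR adjusted p = 0.000128) and by 2.38 in males (SE 0.18, edgeR adjusted p = 2.74e-05). The endothelial markers fell with it, from 2643 to 4627 CPM down to 235.5 to 301 CPM in females. In males they fell from 3821 to 4805 CPM down to 198.6 to 275.2 CPM. Of 8 osteoclast markers, 7 were lower at 65 weeks without overlap in each sex, with the remaining 1 higher in males. Of all genes, 41.6% in females and 39.4% in males were lower without overlap. The part of either list in the fall of Tlr3 was not tested.

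**Figure D2:**
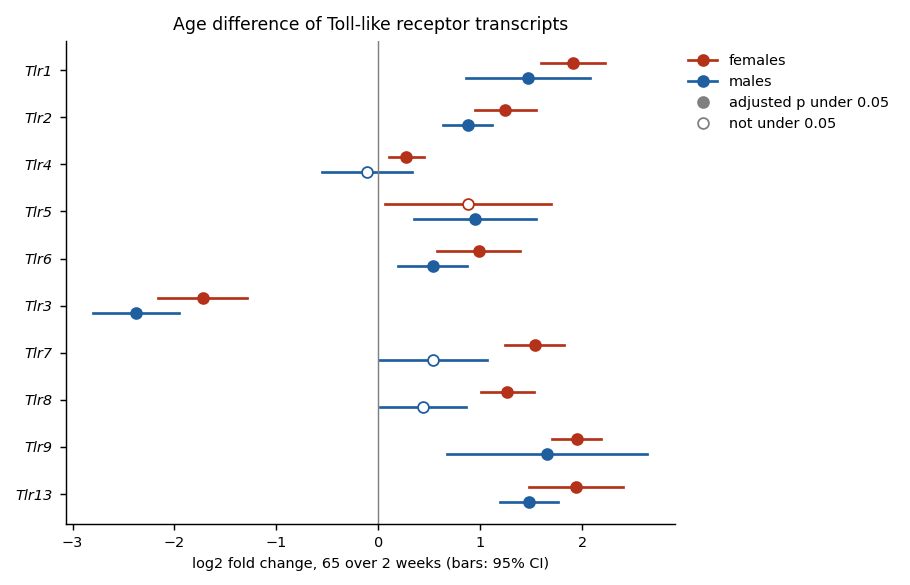
Log2 fold change of each member, 65 over 2 weeks (x axis), in females (red) and males (blue) with 95% confidence intervals as bars and filled points where the edgeR adjusted p was under 0.05. The surface receptors stand above the endosomal ones, Tlr3 is the member on the left in both sexes at -1.73 and -2.38, and the male intervals of Tlr4, Tlr7 and Tlr8 reach or come close to 0.

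**Figure D3:**
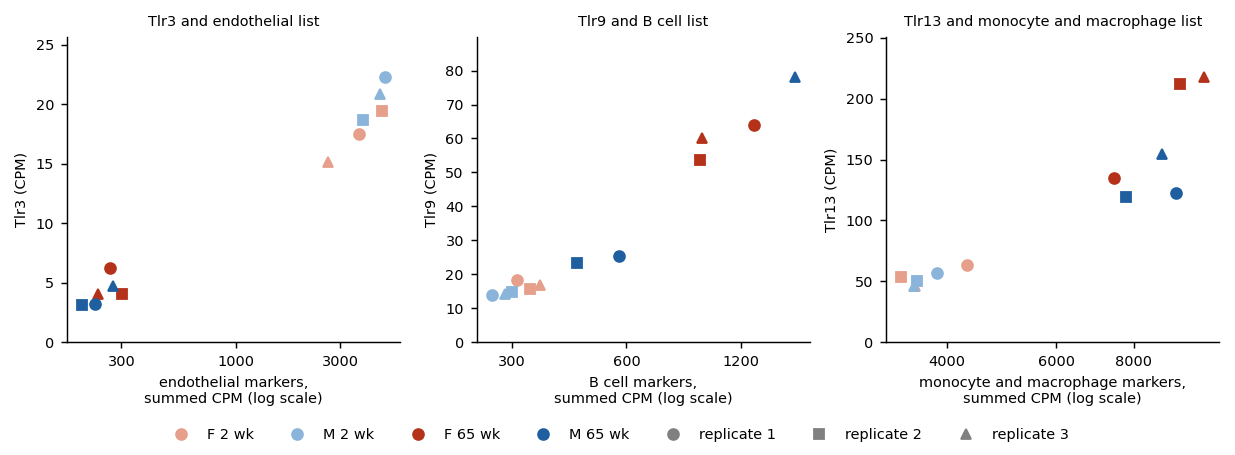
Level of 3 members in CPM (y axis) against the summed CPM of a marker list (x axis, log scale) in the 12 libraries, coloured by group and shaped by replicate. Tlr3 is plotted against 10 endothelial markers, Tlr9 against 10 B cell markers, where replicate 3 of the 65-week males is at the upper right with 78.2 CPM, and Tlr13 against 10 monocyte and macrophage markers.

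The levels were also set against a sum of 4 genes of all leukocytes (Ptprc, Spi1, Coro1a and Laptm5), a description chosen after the values were seen. This sum was 1113 to 1334 CPM at 2 weeks and 2346 to 3039 CPM at 65 weeks. Per unit of it, 84.6% of all genes tested were lower at 65 weeks without overlap in females and 5.08% were higher. Among the members, Tlr3 and Tlr4 were lower and Tlr1, Tlr7, Tlr9 and Tlr13 were higher in females. Tlr9 was 1.33% to 1.41% of the sum in 2-week females and 1.81% to 2.48% in 65-week females, and Tlr13 was 3.82% to 4.74% and 5.21% to 7.55%. In males 81.6% of all genes were lower and 5.05% were higher. There Tlr2, Tlr3, Tlr4, Tlr6, Tlr7 and Tlr8 were lower and only Tlr13 of the 10 members was higher, at 4.18% to 4.87% of the sum at 2 weeks and 4.92% to 5.09% at 65 weeks. Tlr3 dropped furthest, from 1.25% to 1.65% down to 0.138% to 0.24% of the sum in females.

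Partners of the receptors were read from a list of 63 genes in 6 roles. In females 41 of 61 tested rose and 3 fell, and in males 35 of 60 rose and 7 fell, where 59.7% and 55.5% of all genes were called in the same edgeR fits. In both sexes 32 rose and 3 fell, where 22.7% of the 14775 genes tested in both rose in each and 24.5% fell in each. The medians of the list, 0.64 in females and 0.42 in males on the log2 scale, were below those of the receptors. The male counts were 23 and 4 without replicate 3 of the 2-week males and 26 and 4 without replicate 1 or replicate 2 of that group. The share of all genes called in those fits was not taken, so the lower counts are not a result about the partners.

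The counts by role that follow are to be read against 30.2% of all genes rising and 29.5% falling in females, and 27% and 28.5% in males. Among 11 co-receptors, accessory and trafficking proteins, 8 rose and 2 fell in females, and 5 rose and 2 fell in males. Unc93b1, which carries the endosomal receptors out of the endoplasmic reticulum, was at 186.7 to 196.7 CPM in 2-week females and at 353.3 to 398.3 CPM in 65-week females, a log2 rise of 1.103 (SE 0.08, adjusted p = 1.4e-05 by edgeR), and rose by 0.83 in males (SE 0.21, edgeR adjusted p = 0.0121). Slc15a4, a lysosomal transporter needed for signalling by Tlr7 and Tlr9, had the largest rise shared by the sexes in this role, at 1.32 and 1.19. Cd14, which hands lipopolysaccharide to Tlr4 and is also on the macrophage list, rose by 2.16 and 0.95, whereas Ly96, the subunit of Tlr4 that binds lipopolysaccharide, was at -0.13 and -0.49 with no call (edgeR adjusted p = 0.511 and 0.154). Cd180 and its partner Ly86, a TLR-like complex of B cells and macrophages, rose by 1.28 and 1.14 in females and by 1.02 and 0.85 in males. Lbp, the lipopolysaccharide-binding protein, fell by 1.81 and 1.64, from 77.3 to 110.9 CPM at 2 weeks down to 21.0 to 27.0 CPM at 65 weeks in females. The other gene that fell in both sexes was Lrrc59, at -0.59 and -0.58.

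Of 6 adaptors tested in females and 5 in males, 4 rose in each sex and none fell. They were Pik3ap1, which links TLRs to phosphoinositide kinase, at 1.44 in females and 1.09 in males, Ticam2 at 1.30 and 0.89, Tirap at 0.60 and 1.12 and Ticam1, which encodes TRIF, at 0.29 and 0.37. Myd88, the adaptor used by nearly all TLRs, was at 0.25 and 0.19 and was not called (edgeR adjusted p = 0.0735 in females and 0.0823 in males). Its level was 63.8 to 72.6 CPM in 2-week females and 64.7 to 84.6 CPM in 65-week females, so the groups overlapped. Of 16 kinases and ubiquitin ligases, 9 rose in females and 11 in males and none fell, and Irak2 had the largest rise shared by the sexes, at 1.19 and 1.03.

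Of 9 inhibitors, 5 rose in both sexes, namely Irak3, Tnfaip3, Nfkbia, Cyld and Zc3h12a. Irak3, a relative of the IRAK kinases that dampens signalling, rose most, by 1.40 in females and by 1.24 in males. In males Il1rl1 also rose and Tollip, Sigirr and Socs1 fell, at -0.32, -0.87 and -0.97. Of 9 transcription factors, 8 rose in females and 3 rose in males (Rel, Irf5 and Rela), where Irf3 fell. Rel, an NF-kappaB subunit, rose by 1.52 and by 1.33, from 5.49 to 7.54 CPM at 2 weeks to 14.2 to 20.6 CPM at 65 weeks in females.

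Of 12 cytokine and chemokine targets, 10 were tested in each sex. In females 7 rose (Tnf, Il1b, Il12b, Cxcl2, Cxcl10, Ccl3 and Ccl4) and Nos2 fell, and in males the same genes other than Il12b, which was not tested there, rose and Nos2 fell. Cxcl2, a chemokine for neutrophils, had 1 to 3 counts per library at 2 weeks and 31 to 60 counts at 65 weeks. Nos2, the inducible nitric oxide synthase, had 56 to 108 counts per library at 2 weeks, and at 65 weeks it had 0 to 4 counts in females and 1 to 10 in males. No fold change is given for these 2 genes because their lower groups lie near the floor of counting. The call of Il12b in females also rests on few counts, 0 to 3 per library at 2 weeks and 12 to 28 at 65 weeks. Il6 went the other way at counts near the floor. In females it had 6 to 13 counts per library at 2 weeks and 0 to 1 at 65 weeks, and it was not tested. In males it had 18 to 22 counts at 2 weeks and 0, 0 and 11 at 65 weeks, and it was not called (edgeR adjusted p = 0.19). Tnf had 7 to 23 counts and Ccl4 10 to 22 counts per library at 2 weeks. Cxcl2 and Nos2 in both sexes, Il12b in females, and Tnf and Ccl4 in males passed the low-count filter only through the age where they were high. Their calls are included in the counts of this role and of the whole partner list, and are not support for a change with age. Genes outside the naming rule were named in these lists after their values were seen.

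**Figure D4:**
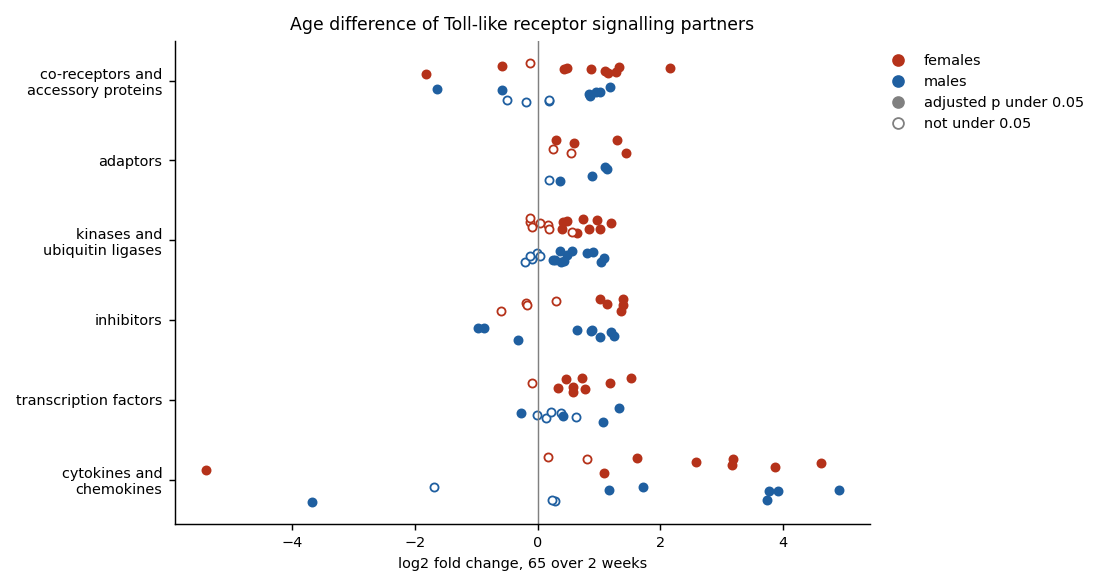
Log2 fold change of the partner genes, 65 over 2 weeks (x axis), by role (y axis) in females (red) and males (blue), with filled points where the edgeR adjusted p was under 0.05. Most points lie to the right of 0, the cytokines spread most widely, and the fitted values of genes with nearly no counts at one age, such as Cxcl2 and Nos2, depend on the prior count of the fit.

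Whether TLR transcripts differ between the sexes was asked at each age. At 2 weeks no member was called (edgeR quasi-likelihood test), where 0.0332% of 15081 genes were called, and DESeq2 called none of the members while it called 2.96% of all genes. At an unadjusted p under 0.05 there were 2 members, Tlr4 and Tlr9, where 17.8% of all genes passed. Both were also free of overlap, a state found in 9.97% of all genes for higher and 11.8% for lower male values. Female libraries held Tlr4 at 44.3 ± 1.44 CPM and male libraries at 64.5 ± 15.6 CPM (SD, n = 3), a log2 difference, male over female, of 0.53 (95% CI 0.14 to 0.91, edgeR adjusted p = 0.229). Tlr9 was at 16.9 ± 1.29 and 14.3 ± 0.400 CPM (SD, n = 3), a difference of -0.26 (95% CI -0.48 to -0.04, edgeR adjusted p = 0.244). The X-linked Tlr7 and Tlr8 stood at 0.40 (95% CI -0.04 to 0.83) and 0.35 (95% CI -0.02 to 0.73), and Tlr13 at -0.09 (95% CI -0.39 to 0.20). In these libraries all 10 neutrophil markers were lower in males without overlap, at a sum of 4077 to 4371 CPM against 5120 to 6406 CPM in females, as were 5 of 10 B cell markers and 3 of the 4 pan-leukocyte genes, and none of the 10 macrophage markers. Their part in the values of Tlr4 and Tlr9 was not tested.

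At 65 weeks again no member was called by edgeR or by DESeq2, which called 0.042% and 2.79% of 14287 genes, and all 10 members overlapped between the sexes, where 9.32% of all genes were higher and 6.16% lower in males without overlap. Of the 10 members 9 had a negative value, and Tlr4 was at 0.16 (95% CI -0.10 to 0.42). At an unadjusted p under 0.05 there were 3 members, all X-linked, where 10.4% of all genes passed. Female libraries held Tlr7 at 96.3 ± 12.9 CPM and male libraries at 65.7 ± 17.3 CPM (SD, n = 3), a difference of -0.58 (95% CI -0.96 to -0.19, edgeR adjusted p = 0.272). Tlr8 was at 73.0 ± 8.42 and 54.0 ± 9.17 CPM (SD, n = 3), a difference of -0.45 (95% CI -0.75 to -0.16, edgeR adjusted p = 0.26). Tlr13 differed by -0.53 (95% CI -0.96 to -0.10, edgeR adjusted p = 0.372). Autosomal Tlr9 had a value of the same size, -0.53, but with a wide interval (95% CI -1.43 to 0.37, edgeR adjusted p = 0.728).

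The 65-week values turned on replicate 3 of the males. Without it, 3 members were lower in males, in a fit that called 5.65% of all genes. These were Tlr9 at -1.27 (edgeR adjusted p = 0.00407), Tlr7 at -0.77 (edgeR adjusted p = 0.0167) and Tlr8 at -0.57 (edgeR adjusted p = 0.0326), with the lone pair of male libraries against 3 female ones. That library lay inside the female range for Tlr7 and Tlr8 and above it for Tlr9. Leaving out any other library of 65 weeks gave no called member. Neutrophil markers were higher in these 65-week males, with 10 of 10 genes free of overlap and a sum of 17890 to 26330 CPM against 12100 to 16170 CPM in females. Lower in males without overlap were 2 of 10 macrophage markers (Csf1r and Cx3cr1) and 4 of 10 dendritic cell markers. So were 2 of 10 endothelial markers and 1 of 10 T and NK cell markers. Higher without overlap were 1 of 10 endothelial, 1 of 10 B cell and 2 of 8 osteoclast markers. Of all genes, 9.32% were higher and 6.16% lower in males without overlap. The part of these lists in the lower TLR values was not tested.

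**Figure D5:**
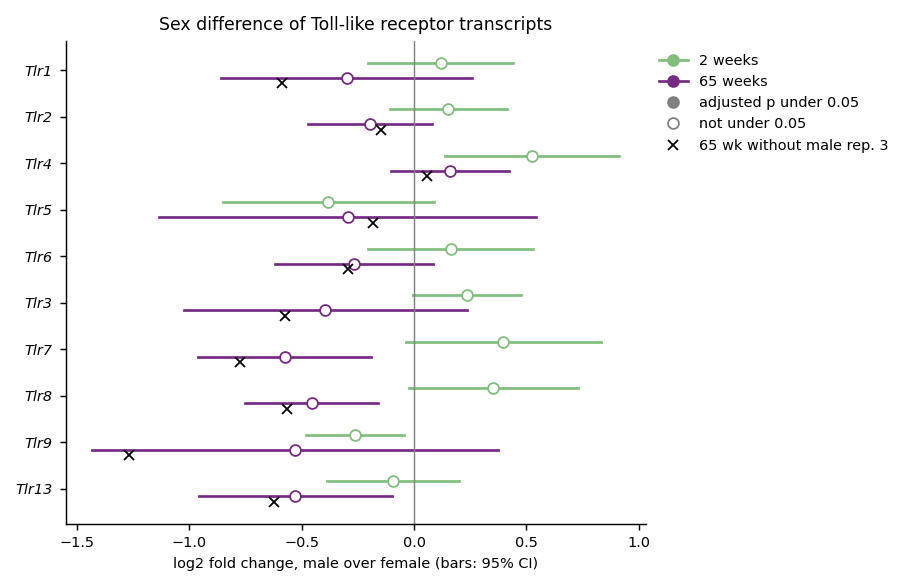
Log2 fold change, male over female (x axis), of each member at 2 weeks (green) and 65 weeks (purple) with 95% confidence intervals as bars, open points because no edgeR adjusted p was under 0.05, and crosses for 65 weeks without replicate 3 of the males. The Tlr7 and Tlr8 values lie right of 0 at 2 weeks and left of 0 at 65 weeks, and the cross of Tlr9 lies at -1.27.

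The difference between these differences was tested with an interaction term fitted to the 12 libraries. No member was called by edgeR, where 0.00635% of 15747 genes were called. At an unadjusted p under 0.05 there were 3 members, Tlr3, Tlr7 and Tlr8, where 11.9% of all genes passed. The age change in males minus that in females was -0.996 on the log2 scale for Tlr7 (95% CI -1.60 to -0.39, edgeR adjusted p = 0.197) and -0.83 for Tlr8 (95% CI -1.33 to -0.33, edgeR adjusted p = 0.189). DESeq2 called both (adjusted p = 0.0485 and 0.0489) in a fit that called 2.5% of all genes. Without replicate 3 of the 65-week males edgeR called Tlr7 at -1.17 (adjusted p = 0.032), Tlr8 at -0.92 (adjusted p = 0.0414) and Tlr9 at -1.003 (adjusted p = 0.0103), where 4.66% of all genes were called. The comparisons of age, sex and interaction share libraries and are not independent of each other.

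None of the partner genes was called between the sexes or in the interaction by edgeR. At an unadjusted p under 0.05 in these fits there were 10 of 60 tested at 2 weeks, 10 of 59 at 65 weeks and 7 of 62 in the interaction. Of all genes 17.8%, 10.4% and 11.9% passed. DESeq2 called Cd36 (0.31) and Traf3 (-0.35) at 2 weeks, Hsp90b1 (-0.63) and Irf7 (-0.85) at 65 weeks, and Hsp90b1 (-0.66) and Tirap (0.54) in the interaction. Its fits called 2.96%, 2.79% and 2.5% of all genes. Without replicate 3 of the 65-week males edgeR called 12 partners at 65 weeks, in a fit that called 5.65% of all genes. Of these partners 11 were lower in males, among them Cd180 (-0.57), Ly86 (-0.54) and Hsp90b1 (-0.74), a chaperone of TLRs. These genes were named after their values were seen.

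Levels were compared between members per kilobase of merged exon length (CPM per kb). By mean, Tlr13 stood first in all 4 groups, at 11.4 CPM per kb in 2-week females, 10.8 in 2-week males, 39.8 in 65-week females and 27.9 in 65-week males. In 2-week males its range overlapped that of Tlr4 (9.20), so the first place there is not settled. Tlr5 stood last in all 4, at 0.250 to 0.543 CPM per kb. In 2-week females Tlr13 was followed by Tlr2 (7.26 CPM per kb), Tlr7 (6.90), Tlr8 (6.55) and Tlr4 (6.32), whose neighbouring ranges overlapped, then by Tlr9 (4.86), Tlr3 (3.24), Tlr1 (3.03) and Tlr6 (1.64). In 65-week females the order after Tlr13 was Tlr7 (18.2 CPM per kb), Tlr9 (17.0), Tlr2 (15.6) and Tlr8 (14.3), again overlapping, then Tlr1 (10.3), Tlr4 (6.96), Tlr6 (2.94) and Tlr3 (0.893). By mean, Tlr9 thus moved from the sixth to the third place, and Tlr3 from the seventh to the ninth, in females. Ranges overlapped between Tlr3 and Tlr1 at 2 weeks, and between Tlr9 and its neighbours Tlr7 and Tlr2 at 65 weeks, so these places are approximate. Of the 9 pairs of neighbours in each order, 5 did not overlap in 2-week females, 3 in 2-week males, 6 in 65-week females and 4 in 65-week males. In 65-week males the places from Tlr2 (13.8) through Tlr7 (12.4), Tlr9 (12.2), Tlr8 (10.6) and Tlr1 (8.54) to Tlr4 (7.88) all overlapped with the next.

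As shares of the summed CPM of the 10 members, Tlr13 made up 16% to 21.9% at 2 weeks and 25.5% to 33.8% at 65 weeks over both sexes. Tlr4 made up 15.8% to 22% at 2 weeks and 7.37% to 12.3% at 65 weeks. Tlr3 went from 5.92% to 8.1% down to 0.605% to 1.17%. The share of Tlr8 was a little lower in every 65-week library, at 11% to 12.3%, than in every 2-week library, at 12.4% to 14.6%.

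For each member the protein-coding genes with the most similar pattern were found by the root mean square difference of centred log2(CPM + 0.5) over the 12 libraries, among 12529 genes of at least 1 CPM. The value for Tlr7 and Tlr8 was 0.137, and Tlr8 was the gene most like Tlr7, followed by Adgre1 (0.156). Tlr8 itself was most like Abca9 (0.114) and Cyria (0.127). Tlr13 was most like Tnfrsf1b (0.102), a receptor of tumour necrosis factor, and Ankrd44 (0.143). Tlr9 was most like Fam169b (0.169) and Jakmip1 (0.176), and Tlr1 like Hvcn1 (0.148), a proton channel, and Vipr1 (0.154). Tlr2 was most like Gcnt2 (0.105) and Klf6 (0.121), Tlr6 like Abhd2 (0.130) and Dram1 (0.137), and Tlr4 like Lap3 (0.119) and Snx25 (0.123). Tlr3 was most like Sall2 (0.127), which went from 20.8 CPM in 2-week females to 4.86 CPM in 65-week females, and Pard3b (0.131). Tlr5 had no match closer than Pira13 (0.225) and Ier3 (0.242). These are descriptions over libraries that share their ages, and nothing follows from them about shared function or control.

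The other mouse family genes, Tlr11 and Tlr12, were low. Tlr11 was at 0.704 to 3.34 CPM and Tlr12 at 4.598 to 14.1 CPM over the 12 libraries, with replicate 3 of the 65-week males the highest for both. In females they rose by 0.81 (edgeR adjusted p = 0.0278) and by 0.88 (edgeR adjusted p = 0.00739) on the log2 scale with age, and in males the values were 0.81 (edgeR adjusted p = 0.217) and 0.36 (edgeR adjusted p = 0.372).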

How the data were processed

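RNA-seq counts per gene of 12 BEC libraries were analysed. The authors deposited raw read counts, which were not normalised. The submitters' processing notes name TopHat2, HTSeq and mm9, whereas the methods name STAR, GRCm39 and featureCounts, and the sources were not reconciled. Annotation release, strand use and treatment of multimapping reads are not given in the sources used here. A total RNA kit is described, while polyadenylated RNA is the labelled molecule. Groups were taken from the sex and age labels.

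Testing used edgeR 4.0.16 in R 4.3.3: filterByExpr (minimum count 10), TMM scaling and a quasi-likelihood F test, with Benjamini-Hochberg adjustment over all genes tested and a threshold of 0.05. Ages were compared within each sex and sexes within each age (6 libraries each), and the interaction on 12 libraries. CPM is the count scaled by the library total. SEs come from the F statistic. Of 37620 Ensembl IDs 31052 were found in GENCODE M39, holding 99.29% of the counts, and gave symbols, positions and exon lengths. Promoter sequences are from RefSeq. The floor was set at 3 counts per library, for counting error only.

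The members and all gene lists were chosen with earlier results of these data known. Named were all members, Tlr11, Tlr12, the direct partners Cd14, Ly96, Cd180, Ly86, Unc93b1, Myd88, Tirap, Ticam1 and Ticam2, the partner of each role with the largest rise and the largest fall (by the smaller of the 2 absolute changes) among those called in both sexes, and the 2 genes most like each member. Alternatives were DESeq2 1.42.0, other scalings and filters, a model of all 12 libraries, a block for the replicate number and dropping each library in turn. Counts of replicates differed beyond sampling noise in every group. The code was tested on simulated counts. Figures were drawn with matplotlib 3.10.9.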

Additional observations from a re-analysis of the deposited data

How the results depend on the processing

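Of 750 member values under the alternatives, 719 kept their direction and their side of the threshold, 11 lost a call, 14 gained one and 6 changed sign. The 6 came from leaving out 1 library and none was called: Tlr4 with age in males (range over libraries left out -0.31 to 0.0416), Tlr13 at 2 weeks (-0.19 to 0.0378) and Tlr5 at 65 weeks (-0.58 to 0.0184) between the sexes, and Tlr5 in the interaction (-0.21 to 0.37, with -0.0906 and -0.13 also reversed). The cause was not tested. Over 150 values under other scalings none changed sign and 2 lost a call with library totals alone, Tlr4 in females (0.14, edgeR adjusted p = 0.122) and Tlr6 in males (edgeR adjusted p = 0.0536), a scaling that moved the median of all genes by -0.136 and -0.115 against TMM. In the model of all 12 libraries Tlr4 in females lost its call (edgeR adjusted p = 0.163), while Tlr5 in females (edgeR adjusted p = 0.0357, and 0.0497 by DESeq2) and Tlr7 and Tlr8 in males (edgeR adjusted p = 0.0367 and 0.0395) gained one. That model called 56.6% of all genes with age in females and 60% in males. Leaving out 1 library gave 8 to 10 called members with age in females, 5 to 7 in males, 0 between the sexes at 2 weeks, 0 to 3 at 65 weeks and 0 to 3 in the interaction, where DESeq2 gave 2 members. Called partners ran from 27 to 41 with age in males, 0 to 12 between the sexes at 65 weeks and 0 to 6 in the interaction. Among fits with 1 library left out, shares of all genes were taken only without replicate 3 of the 65-week males. They were 62% with age in males, 5.65% between the sexes and 4.66% in the interaction. Counts from the other such fits are not results about the members or partners. DESeq2 gave 2 partners at 2 weeks, 2 at 65 weeks and 2 in the interaction, where 2.96%, 2.79% and 2.5% of all genes were called. At 65 weeks edgeR gave 1 partner with no filter on low counts (Irf7) and 1 in the model of all 12 libraries (Hsp90b1). There 0.516% and 1.61% of all genes were called. With the replicate number as a block, 9 members were called with age in females and 7 in males, where 54.7% and 50.8% of all genes were called. The block changed no member call. The libraries shared only a number: correlations of their deviations ran from -0.526 to 0.225, and 2 of 12 were highest with their own number. Tlr5 rested on the fewest counts of the members, 57 to 149 per library, and the part of depth in its values was not tested.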
